A study of Rattus norvegicus with 17 samples.

Results

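Claudins are the membrane proteins that form the strands of the tight junction, the seal between neighbouring epithelial cells. Some claudins act as pores for small ions or water between the cells and others act as barriers, so each stretch of the kidney tubule has its own set. The 9 genes described here, Cldn1, Cldn2, Cldn3, Cldn4, Cldn7, Cldn8, Cldn10, Cldn16 and Cldn19, are the claudins best known from the nephron. They were chosen by gene symbol alone, and each had exactly 1 row among the 126306 features of each deposited gene table, of which 31195 carried 1 gene name. In the isoform tables the same symbols were carried by 13 transcript rows.

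The values come from left kidney tissue of 17 male rats of the Sprague Dawley strain, operated on at 10 weeks of age and studied 6 weeks after that. In 5/6Nx (6 rats) the right kidney and 2/3 of the left were removed. In 1/3Nx (6 rats) the left kidney was cut in the same way and the right one was spared. Sham rats (5) kept all their kidney tissue. All rats were fed a 0.4% Dyets chow, and no drug was given. The tissue of the operated groups is therefore a whole remnant with all its cell types. In such bulk tissue, fewer cells of a type and less RNA per cell cannot be told apart.

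The deposited tables hold 1 FPKM, a count of fragments scaled to the length of the feature (per kilobase) and to the mapped fragments (per M, the SI prefix mega), for each group, with no value for a single rat. No SD or n can therefore be set beside a level, and whether the groups overlap cannot be seen. The only test available is the authors' own, reported as a q-value with a threshold of 0.05. The libraries held 59.0 to 104 M reads in 5/6Nx, 59.7 to 83.0 M in 1/3Nx and 66.1 to 78.5 M in sham. Between 62.6% and 90.5% of reads mapped in 5/6Nx, 87.1% to 90.1% in 1/3Nx and 84.8% to 89.6% in sham. Since the low-mapping 5/6Nx libraries are part of the group value, no claudin value can be given without them. Both comparisons use the same sham rats, but for the 9 claudins the sham FPKM of the 1/3Nx table was 2.00 to 2.02 times that of the 5/6Nx table, so levels are compared only within a table.

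In the 1/3Nx remnant Cldn4 and Cldn7, claudins of the distal nephron and collecting duct, rose 2.47-fold and 1.93-fold over sham in the authors' deposited table. They were the only 2 of the 9 claudins called, and none of the 9 fell past the threshold. In the 5/6Nx remnant 0 of 9 claudins passed in the authors' deposited table, also at an unadjusted p under 0.05. The calls across each table set the scale for these counts. Among genes in 1/3Nx, 6.40% of tested features were called, 3.96% as higher, and 7.28% of features with 1 name and at least 1 FPKM in sham. Among genes in 5/6Nx, 58.0% of tested features were called, but 58039 of those 60264 calls had no gene name and 0 FPKM in sham. Among the 5/6Nx features with 1 name and at least 1 FPKM in sham, the class that holds all 9 claudins, 1.70% were called.

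Across the 5/6Nx table, tested features above 0 FPKM in both groups had a median log2 fold change of 0.61 in the authors' deposited table, while those of the class that holds the claudins stood lower. Features with 1 name and at least 1 FPKM in sham had a median log2 fold change of -0.20 in the authors' deposited table (n = 10067), against -0.01 in the 1/3Nx table (n = 11256). The 9 claudins had a median of 0.11 in 5/6Nx and 0.45 in 1/3Nx in the authors' deposited tables. The 5/6Nx log2 fold change of Cldn3 was -0.15 in the authors' deposited table and 0.04 relative to this median, and the other 8 claudins kept their sign.

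**Figure D1:**
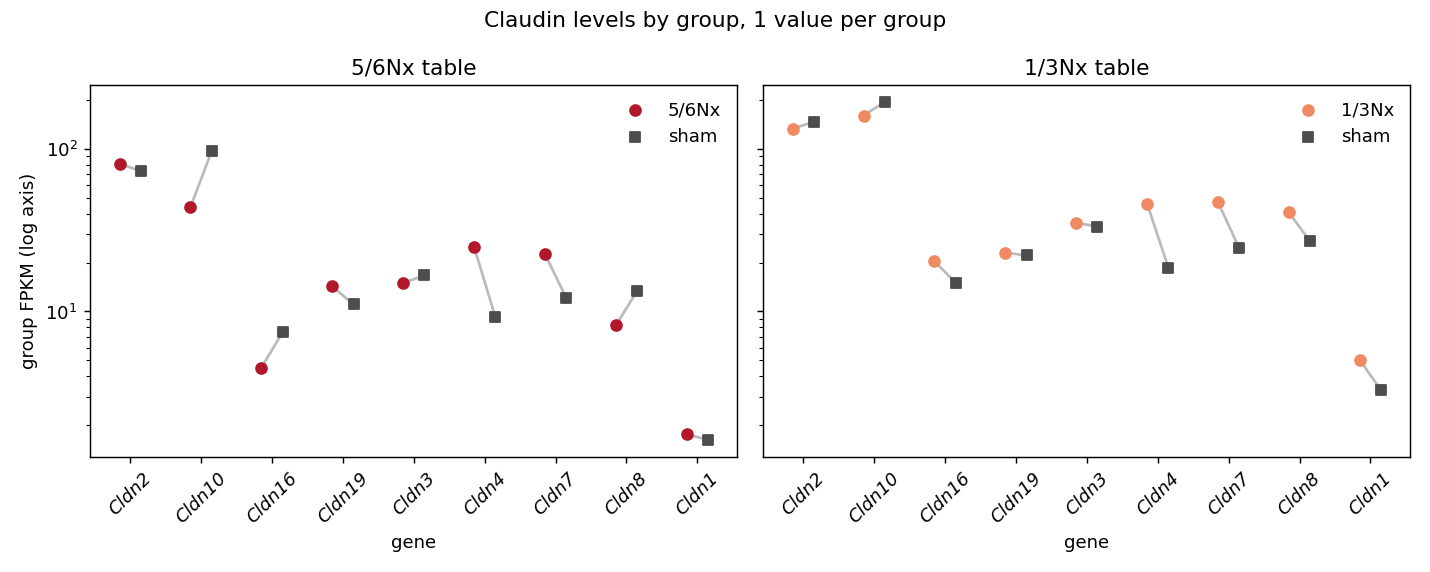
Group FPKM of the 9 claudins on a log axis, with the operated group (circles) left of sham (squares) and a grey line joining the 2 values of a gene. Each point is 1 group value with no error. Cldn4 and Cldn7 lay above sham in both panels, and Cldn10 lay below it.

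Summed over the 9 genes, the claudin FPKM was 216 in 5/6Nx and 242 in sham, and 510 in 1/3Nx and 484 in sham of its own table. In sham kidneys the order was Cldn10, Cldn2, Cldn3, Cldn8, Cldn7, Cldn19, Cldn4, Cldn16 and Cldn1 in both tables, with Cldn10 at 40.1% and Cldn2 at 30.2% of the sum. With no spread between rats, it cannot be said which neighbours in that order differ. The order was not the same after surgery. Cldn4 held rank 3 in 5/6Nx and rank 4 in 1/3Nx, against rank 7 in sham. Its share of the claudin FPKM was 11.6% in 5/6Nx and 3.84% in sham, and 8.99% in 1/3Nx and 3.84% in sham. Cldn2 led in 5/6Nx with 37.5% of the sum, against 30.2% in sham, while Cldn10 made up 20.3% there, against 40.1% in sham.

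Cldn4, Cldn3, Cldn7 and Cldn8 belong to the distal nephron and collecting duct. Claudin-4 and claudin-8 bind each other and are known for their part in the paracellular route for chloride in collecting duct cells. Cldn4 had 45.9 FPKM in 1/3Nx kidneys, against 18.6 FPKM in sham. This rise had a log2 fold change of 1.303, p = 5e-05, the smallest p in the table, and q = 0.00183 in the authors' deposited table. Of 7909 features with 1 name and at least 5 FPKM in sham, 0.632% had a larger log2 fold change in the authors' deposited 1/3Nx table. In 5/6Nx kidneys Cldn4 had 25.1 FPKM, against 9.27 FPKM in sham, with a log2 fold change of 1.44 and q = 0.444 in the authors' deposited table. That 5/6Nx value did not pass, and the difference between the surgeries was not tested. Features with 1 name, at least 5 FPKM in sham and a log2 fold change of at least 1 were called in 40 of 231 cases (17.3%) in the authors' deposited 5/6Nx table and in 100 of 111 cases (90.1%) in the 1/3Nx table.

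Cldn7, a claudin found along much of the distal nephron and on the basolateral side of the cells as well as at the junction, passed in 1/3Nx and not in 5/6Nx. Its level was 47.1 FPKM in 1/3Nx and 24.4 FPKM in sham. The rise had a log2 fold change of 0.95, p = 0.00115 and q = 0.0233 in the authors' deposited table. In 5/6Nx it had 22.4 FPKM, against 12.2 FPKM in sham, with a log2 fold change of 0.88 and q = 0.363 in the authors' deposited table. Cldn4 lies on chromosome 12, 24761209 to 24763005, and Cldn7 on chromosome 10, 56576232 to 56578626, as the deposited tables give them. The genome build behind these positions was not settled, since the submitters' processing notes name rn5 while some sequence names belong to a later assembly.

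Cldn8 came closest to the threshold among the rest. It had 40.6 FPKM in 1/3Nx, against 26.9 FPKM in sham, with a log2 fold change of 0.59, p = 0.00545 and q = 0.0726 in the authors' deposited table. In 5/6Nx its level was 8.21 FPKM, against 13.3 FPKM in sham, with a log2 fold change of -0.70 and q = 0.717 in the authors' deposited table. The Cldn8 values thus lay on opposite sides of sham, and the difference between the surgeries was not tested. As a ratio within a group, Cldn4 stood at 3.05 times Cldn8 in 5/6Nx, against 0.695 times in sham. In 1/3Nx the same ratio was 1.13, against 0.690 in sham.

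Cldn3, a barrier-type claudin of the distal tubule and collecting duct, had values close to sham in both tables. Its level was 14.97 FPKM in 5/6Nx and 16.7 FPKM in sham, with q = 0.927 in the authors' deposited table, and 35.0 FPKM in 1/3Nx and 33.3 FPKM in sham, with q = 0.926. The deposited Cldn3 interval, chromosome 12 from 21721214 to 22053869, spans 332656 bases and is shared with 14 other features, Mepce, Ppp1r35 and Nyap1 among them, and lies 2707 kb from Cldn4. In the RefSeq annotation of GRCr8, Cldn3 is 1473 bases long and lies 41.6 kb from Cldn4. No source used here says how the authors' counting divided reads within that interval.

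The promoters of the distal claudins are shown because Cldn7 passed in 1/3Nx, Cldn8 came next and Cldn3 had values close to sham. Each holds 250 bases before and 50 bases after the gene's start in RefSeq on GRCr8 and is written 5′ to 3′ on the strand of the gene, and 7 of the 9 claudins had an entry. Cldn2 and Cldn4 had none, so the motif search does not cover Cldn4. Capitals mark matches on either strand to GGGCGG (the GC box) or CAGGTG (the Snail E-box, bound by Snail-type repressors known to act on claudin genes).
Cldn7 promoter, plus strand, chr10:55188420-55188719: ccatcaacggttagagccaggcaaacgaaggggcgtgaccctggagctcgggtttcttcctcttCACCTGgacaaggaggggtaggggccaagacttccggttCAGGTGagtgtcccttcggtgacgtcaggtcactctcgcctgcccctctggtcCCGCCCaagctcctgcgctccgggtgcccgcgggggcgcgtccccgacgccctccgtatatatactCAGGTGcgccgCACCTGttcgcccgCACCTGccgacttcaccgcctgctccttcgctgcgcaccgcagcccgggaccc
Cldn8 promoter, minus strand, chr11:41364281-41364580: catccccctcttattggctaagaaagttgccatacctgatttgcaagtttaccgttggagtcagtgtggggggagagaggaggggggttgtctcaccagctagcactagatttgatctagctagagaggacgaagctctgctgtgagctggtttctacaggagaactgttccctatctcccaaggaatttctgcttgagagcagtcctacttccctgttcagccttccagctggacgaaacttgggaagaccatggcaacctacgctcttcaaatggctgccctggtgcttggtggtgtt
Cldn3 promoter, minus strand, chr12:27346498-27346797: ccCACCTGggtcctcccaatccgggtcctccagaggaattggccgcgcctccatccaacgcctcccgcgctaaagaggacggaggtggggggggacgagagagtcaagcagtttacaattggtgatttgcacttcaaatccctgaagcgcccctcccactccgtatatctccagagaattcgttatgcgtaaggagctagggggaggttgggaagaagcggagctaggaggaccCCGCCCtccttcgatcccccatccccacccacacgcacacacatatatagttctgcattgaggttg

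The Cldn7 promoter held 5 matches to CAGGTG on either strand, at positions -186, -147, -28, -17 and -3 from the start, where position 1 is the first transcribed base. A count of at least 5 was found in 4 of 33469 RefSeq promoters of the same length (0.0120%), a limit chosen after the Cldn7 count was seen. A single match is common, with 18.8% of these promoters holding at least 1. Cldn3 held 1 match to each motif, Cldn8 held none, and GGGCGG was present in 33.1% of all promoters. In the Cldn8 window an ATG, the letters of a start codon, lies just after the RefSeq start. How much of that window is promoter is therefore not known. None of the 7 claudin promoters held TGANTCA (AP-1; in 7.33% of all promoters), TATAAA (the TATA box; in 14.2%) or AACNGGTT (a grainyhead core; in 2.1%), searched on both strands. The motifs do not overlap one another, and these matches describe letters in a window, not sites of binding.

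Cldn2 and Cldn10 are the pore-forming claudins of the more proximal segments. Claudin-2 makes a pore for cations and water in the proximal tubule and the descending thin limb, and claudin-10 has an anion-selective form and a cation-selective form, the second in the thick ascending limb. Cldn2 had 80.8 FPKM in 5/6Nx, against 73.0 FPKM in sham, with a log2 fold change of 0.15 and q = 0.905 in the authors' deposited table. In 1/3Nx its level was 133 FPKM, against 146 FPKM in sham, with a log2 fold change of -0.14 and q = 0.826 in the authors' deposited table. Neither value is far from sham. Cldn10 had the lowest fold change of the 9 in both tables. It had 43.7 FPKM in 5/6Nx, against 96.9 FPKM in sham, with a log2 fold change of -1.15, p = 0.259 and q = 0.312 in the authors' deposited table. In 1/3Nx it had 160 FPKM, against 194 FPKM in sham, with a log2 fold change of -0.28 and q = 0.573 in the authors' deposited table.

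The 5/6Nx value of Cldn10 did not pass, although 1.97% of 5844 features with 1 name and at least 5 FPKM in sham had a lower log2 fold change in the authors' deposited table. Of features of that class with a log2 fold change of -1 or less, 7 of 193 (3.63%) were called in the authors' deposited 5/6Nx table, and 78 of 127 (61.4%) in the 1/3Nx table. The ratio of Cldn10 to Cldn2 was 0.540 in 5/6Nx, against 1.33 in sham, and 1.20 in 1/3Nx, against 1.33 in sham. Both genes lie in deposited intervals shared with a neighbour. Cldn2 (chromosome X, 111120503 to 111191936) shares its interval with Morc4, and Cldn10 (chromosome 15, 104026600 to 104168638) with Dzip1.

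Cldn16 and Cldn19 encode the claudins that together form the calcium and magnesium pathway of the thick ascending limb, and inherited loss of either in humans wastes both ions. Cldn16 had 4.52 FPKM in 5/6Nx, against 7.44 FPKM in sham, with a log2 fold change of -0.72 and q = 0.743 in the authors' deposited table. In 1/3Nx it had 20.4 FPKM, against 14.98 FPKM in sham, with a log2 fold change of 0.45, p = 0.0342 and q = 0.230 in the authors' deposited table. As with Cldn8, the 2 values lay on opposite sides of sham, and the difference was not tested. Cldn19 had 14.2 FPKM in 5/6Nx, against 11.1 FPKM in sham, with a log2 fold change of 0.37 and q = 0.692 in the authors' deposited table. Its 1/3Nx level was 23.0 FPKM, against 22.1 FPKM in sham, with q = 0.941 in the authors' deposited table. As a ratio of group values, Cldn16 stood at 0.317 per Cldn19 in 5/6Nx, against 0.673 in sham, and at 0.887 in 1/3Nx, against 0.678 in sham. This ratio was not tested.

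The other markers of the thick ascending limb gave the following values beside them. None of the 7 markers with a row passed in either of the authors' deposited tables, and Egf was not analysed here. Their median log2 fold change was -0.89 in 5/6Nx and -0.04 in 1/3Nx in the authors' deposited tables. Slc12a1, the sodium, potassium and chloride cotransporter of this segment, had 52.4 FPKM in 5/6Nx, against 112 FPKM in sham, and 300 FPKM in 1/3Nx, against 226 FPKM in sham. The summed level of the 7 markers was 654 FPKM in 5/6Nx and 1373 FPKM in sham, and 2507 FPKM in 1/3Nx and 2754 FPKM in sham. Most of each sum was Umod alone, with 467 FPKM in 5/6Nx and 1098 FPKM in sham, and 1943 FPKM in 1/3Nx and 2201 FPKM in sham. The part of this segment's share of the tissue in the Cldn10, Cldn16 and Cldn19 values was not tested.

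Cldn1, a barrier claudin that marks the parietal cells of Bowman's capsule, was the least abundant of the 9. It had 5.03 FPKM in 1/3Nx, against 3.28 FPKM in sham, with a log2 fold change of 0.62, p = 0.0154 and q = 0.146 in the authors' deposited table. In 5/6Nx it had 1.76 FPKM, against 1.63 FPKM in sham, with a log2 fold change of 0.11 and q = 0.945 in the authors' deposited table. Of the 6 markers fixed for parietal epithelium, Cd44 and Ncam1 rose in 1/3Nx in the authors' deposited table, with 17.2 FPKM against 2.59 FPKM in sham for Cd44 and 1.99 FPKM against 0.856 FPKM in sham for Ncam1. The other markers were not called in 1/3Nx. Pax8 and Wt1 lay slightly below sham there, with log2 fold changes of -0.03 and -0.07 in the authors' deposited table. Cdh6 and Pdpn lay above sham, with 0.96 and 0.46. In 5/6Nx 3 of the 6 markers were higher and 3 lower than sham, and 0 passed in the authors' deposited table. The part of parietal cells in the Cldn1 values was not tested. Cldn1 (chromosome 11, 77814361 to 77830416) and Cldn16 (77681793 to 77703255) are neighbours, 111 kb apart in the deposited coordinates.

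**Figure D2:**
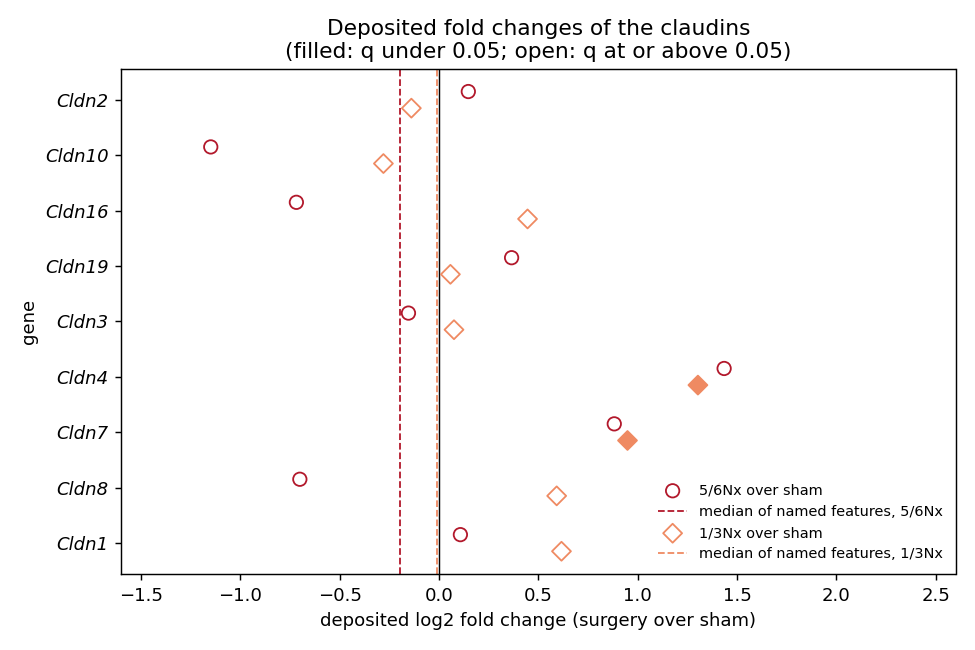
Log2 fold change of surgery over sham from the authors' deposited tables, for 5/6Nx (circles) and 1/3Nx (diamonds), with filled symbols for q under 0.05 and dashed lines at the median of named features with at least 1 FPKM in sham. The filled symbols are Cldn4 and Cldn7 in 1/3Nx, and Cldn8 and Cldn16 lie on opposite sides of 0 in the 2 comparisons.

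The isoform tables split each claudin into its transcripts. All 13 named transcript rows were tested, and 2 were called in 1/3Nx and 1 in 5/6Nx in the authors' deposited tables, where 1.72% of all 1/3Nx rows and 49.6% of all 5/6Nx rows were called. A further 15 assembled transcripts lie under the same gene entries without the gene name. Of these, 8 were tested in 5/6Nx and 9 in 1/3Nx, and 0 was called in either of the authors' deposited tables. Cldn4, Cldn3, Cldn8 and Cldn16 each had 1 transcript, which carried the whole gene value. For Cldn4 that transcript passed in 1/3Nx as well, with q = 0.00490 in the authors' deposited table.

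Cldn7 had 2 named transcripts. ENSRNOT00000079237 rose to 23.1 FPKM in 1/3Nx, against 8.78 FPKM in sham, with a log2 fold change of 1.40 and q = 0.0449 in the authors' deposited table. The second, ENSRNOT00000023291, had 9.08 FPKM in 1/3Nx, against 4.36 FPKM in sham, with q = 0.978 in the authors' deposited table. An assembled transcript without a name made up the rest, with 14.9 FPKM in 1/3Nx and 11.2 FPKM in sham. That last form held 62.8% of the Cldn7 FPKM in 5/6Nx, against 46.3% in sham, and 31.6% in 1/3Nx, against 46.1% in sham. In 5/6Nx the q-values of the named Cldn7 transcripts were 0.778 for ENSRNOT00000079237, with 6.49 FPKM against 4.37 FPKM in sham, and 0.932 for ENSRNOT00000023291, with 1.86 FPKM against 2.17 FPKM in sham, in the authors' deposited table.

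The 5/6Nx call was the annotated Cldn1 transcript ENSRNOT00000002640. It had 1.06 FPKM in 5/6Nx, against 0.0288 FPKM in sham, with a log2 fold change of 5.20, p = 0.02015 and q = 0.0408 in the authors' deposited table. The call was lost when q-values were recomputed over isoforms with 1 gene name (q = 0.422), and a limit of 1 FPKM in sham removes the transcript. In 1/3Nx it had 2.19 FPKM, against 0.0576 FPKM in sham, with a log2 fold change of 5.25, p = 0.0194 and q = 0.414 in the authors' deposited table. The p-values of the 2 comparisons were thus alike, while 49.6% of tested isoform rows were called in 5/6Nx and 1.72% in 1/3Nx. The assembled Cldn1 transcript without a name stood below sham, with 0.698 FPKM in 5/6Nx, against 1.602 FPKM in sham, and 2.84 FPKM in 1/3Nx, against 3.22 FPKM in sham. The annotated form was thus 60.3% of the Cldn1 FPKM in 5/6Nx, against 1.77% in sham, and 43.6% in 1/3Nx, against 1.75% in sham, where both sham values come from the same rats.

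For Cldn10, both named transcripts had lower values after 5/6Nx, and neither passed. ENSRNOT00000083269 had 23.6 FPKM in 5/6Nx, against 59.7 FPKM in sham (q = 0.498), and 90.0 FPKM in 1/3Nx, against 120 FPKM in sham (q = 0.984), in the authors' deposited tables. ENSRNOT00000013520 had 20.02 FPKM in 5/6Nx, against 36.9 FPKM in sham (q = 0.660), and 69.5 FPKM in 1/3Nx, against 73.8 FPKM in sham (q = 0.999), in the authors' deposited tables. The files do not say which of them encodes the anion-selective and which the cation-selective claudin-10.

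Cldn2 had 3 named transcripts and a large assembled one without a name. The unnamed form held 65.7% of the Cldn2 FPKM in 5/6Nx, against 43.1% in sham, and 22.0% in 1/3Nx, against 42.8% in sham. ENSRNOT00000085078 had 21.4 FPKM in 5/6Nx, against 24.4 FPKM in sham, and 59.6 FPKM in 1/3Nx, against 49.4 FPKM in sham. ENSRNOT00000083566 had 4.84 FPKM in 5/6Nx, against 15.04 FPKM in sham, and 40.2 FPKM in 1/3Nx, against 30.2 FPKM in sham. The third, ENSRNOT00000090928, stayed between 0.888 and 2.41 FPKM in all 4 group values. None of the Cldn2 forms passed in the authors' deposited tables, so the shift in make-up has no test behind it. The named Cldn19 transcript, ENSRNOT00000047151, held 54.7% of that gene's FPKM in 5/6Nx, against 56.7% in sham, and 50.9% in 1/3Nx, against 56.6% in sham.

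**Figure D3:**
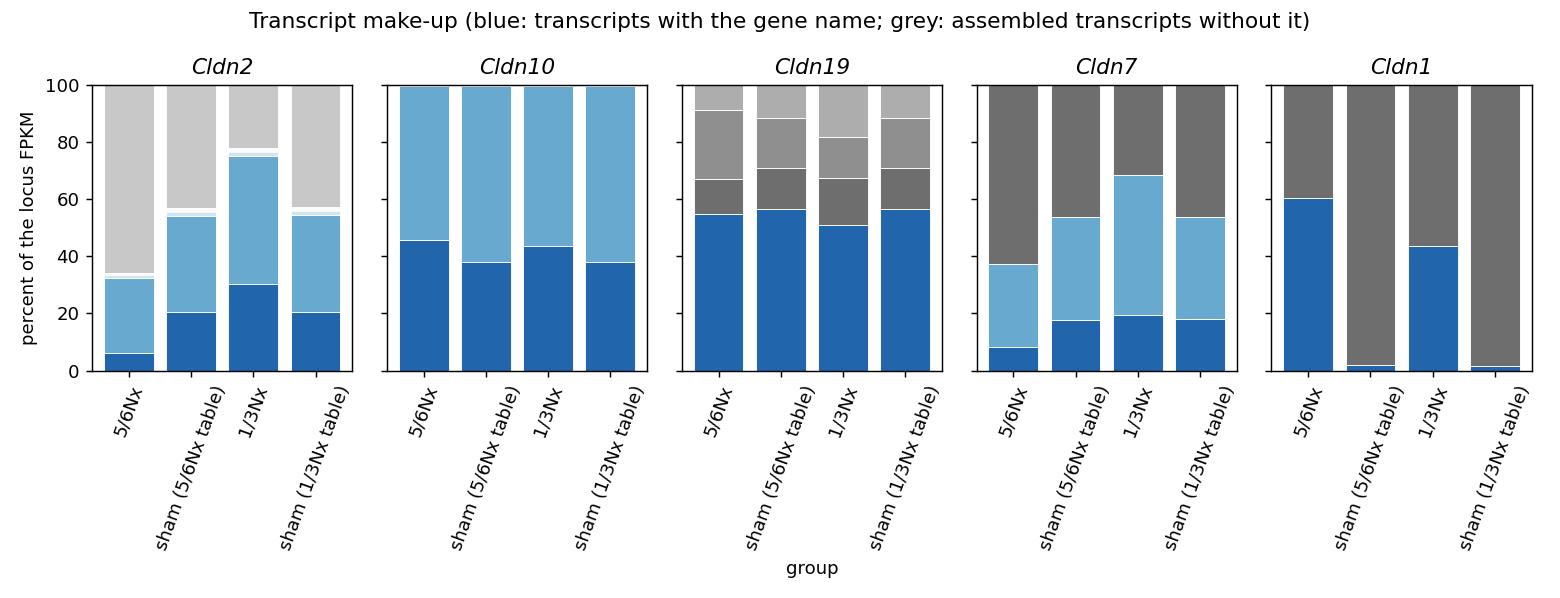
Share of each transcript in the FPKM of 5 claudins with several transcripts, as stacked bars in percent, with each operated group left of its sham. The Cldn1 bars show the named form at 60.3% in 5/6Nx and 43.6% in 1/3Nx, against 1.77% and 1.75% in the sham bars beside them, and Cldn10 keeps a similar make-up in all 4 bars.

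The other claudins were mostly low. Of 27 claudin symbols with a row, 18 were not among the 9, and 9 of those reached 1 FPKM in at least 1 group. The 9 kidney claudins made up 80.3% of the summed claudin FPKM in 5/6Nx, against 91.6% in sham, and 90.4% in 1/3Nx, against 91.6% in sham. Of the 15 other claudins fixed as a list, Cldn6, best known from embryonic epithelia, rose in 1/3Nx, with 6.35 FPKM against 3.08 FPKM in sham, a log2 fold change of 1.04 and q = 0.0278 in the authors' deposited table. In 5/6Nx it had 6.25 FPKM, against 1.54 FPKM in sham, with q = 0.109 in the authors' deposited table and 0.567 when recomputed over features with 1 gene name. No other gene of that list passed in either table. The 9 tested in 5/6Nx had a median log2 fold change of 1.83 and the 10 tested in 1/3Nx one of 0.51 in the authors' deposited tables.

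Cldn5, the claudin of endothelial cells, had 25.9 FPKM in 5/6Nx, against 11.97 FPKM in sham (q = 0.493), and 29.0 FPKM in 1/3Nx, against 23.9 FPKM in sham (q = 0.644), in the authors' deposited tables. Cldn15, a cation pore known from the intestine, had 6.82 FPKM in 5/6Nx, against 1.14 FPKM in sham, with q = 0.0989 in the authors' deposited table, and 2.92 FPKM in 1/3Nx, against 2.28 FPKM in sham. Recomputed over features with 1 gene name, the 5/6Nx q of Cldn15 was 0.530. Cldn12 had 2.56 FPKM in 5/6Nx, against 4.395 FPKM in sham, and 8.52 FPKM in 1/3Nx, against 8.84 FPKM in sham. Cldn23 had 0.960 FPKM in 5/6Nx, against 1.44 FPKM in sham, and 2.98 FPKM in 1/3Nx, against 2.90 FPKM in sham. These 4 genes did not pass in either table. Cldn9 had 2.05 FPKM in 5/6Nx, against 0.576 FPKM in sham, and 1.81 FPKM in 1/3Nx, against 1.15 FPKM in sham. Cldn11 had 0.490 FPKM in 5/6Nx, against 0.344 FPKM in sham, and 1.28 FPKM in 1/3Nx, against 0.692 FPKM in sham. Cldn22 had 2.58 FPKM in 5/6Nx, against 0.450 FPKM in sham, and 0.431 FPKM in 1/3Nx, against 0.901 FPKM in sham, and none of these 3 genes passed. Cldn14, which in mice and humans restrains the Cldn16 and Cldn19 pathway, had 0.728 FPKM in 5/6Nx, against 0.120 FPKM in sham (q = 0.136), and 0.469 FPKM in 1/3Nx, against 0.240 FPKM in sham (q = 0.551), in the authors' deposited tables. Its 5/6Nx q was 0.662 over features with 1 gene name. Cldn34c4, named after its values were seen, had 4.27 FPKM in 5/6Nx and was listed at 0 in sham, with q = 9.2e-05 in the authors' deposited table, and was listed at 0 in both groups of the 1/3Nx table. Calls at 0 FPKM in sham were common in the 5/6Nx table, with 58039 of them among features without a gene name.

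Genes of the proteins that claudins work with did not pass. None of the 12 other membrane proteins of the tight junction, of the 15 plaque and polarity genes or of the 9 adherens junction genes with a row was called in either of the authors' deposited tables. Their median log2 fold changes were 0.08, -0.18 and -0.31 in 5/6Nx and 0.07, 0.18 and 0.14 in 1/3Nx in the authors' deposited tables. Ildr1, a tricellular junction gene, had 3.04 FPKM in 5/6Nx, against 5.90 FPKM in sham, with p = 0.230 in the authors' deposited table. Jam3, a junctional adhesion molecule, had 8.81 FPKM in 1/3Nx, against 6.47 FPKM in sham, with p = 0.0927 in the authors' deposited table. Ocln, the gene of occludin, had 5.18 FPKM in 5/6Nx, against 9.12 FPKM in sham, with p = 0.356 in the authors' deposited table. Tjp1, which encodes the scaffold ZO-1, had 9.22 FPKM in 1/3Nx, against 6.66 FPKM in sham, with p = 0.0436 and q = 0.263 in the authors' deposited table. Ybx3, a transcription factor that binds ZO-1, had 48.2 FPKM in 1/3Nx, against 33.3 FPKM in sham, with p = 0.0119 and q = 0.123 in the authors' deposited table. The cadherin gene Cdh6 had 4.45 FPKM in 1/3Nx, against 2.28 FPKM in sham, with q = 0.0678 in the authors' deposited table.

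Of 16 regulators with a row, known to act on claudins or on their segments and with kinases, proteases and transcription factors among them, none passed in either of the authors' deposited tables. Their median log2 fold change was -0.64 in 5/6Nx and -0.10 in 1/3Nx in the authors' deposited tables. Vdr, the vitamin D receptor, had 38.5 FPKM in 1/3Nx, against 72.3 FPKM in sham, with p = 0.0334 and q = 0.227 in the authors' deposited table. Casr, the calcium-sensing receptor that acts on Cldn14 in the thick ascending limb, had 1.02 FPKM in 5/6Nx, against 2.74 FPKM in sham, with q = 0.187 in the authors' deposited table. Its 5/6Nx q was 0.797 when recomputed over features with 1 gene name. Wnk4 was not analysed here.

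**Figure D4:**
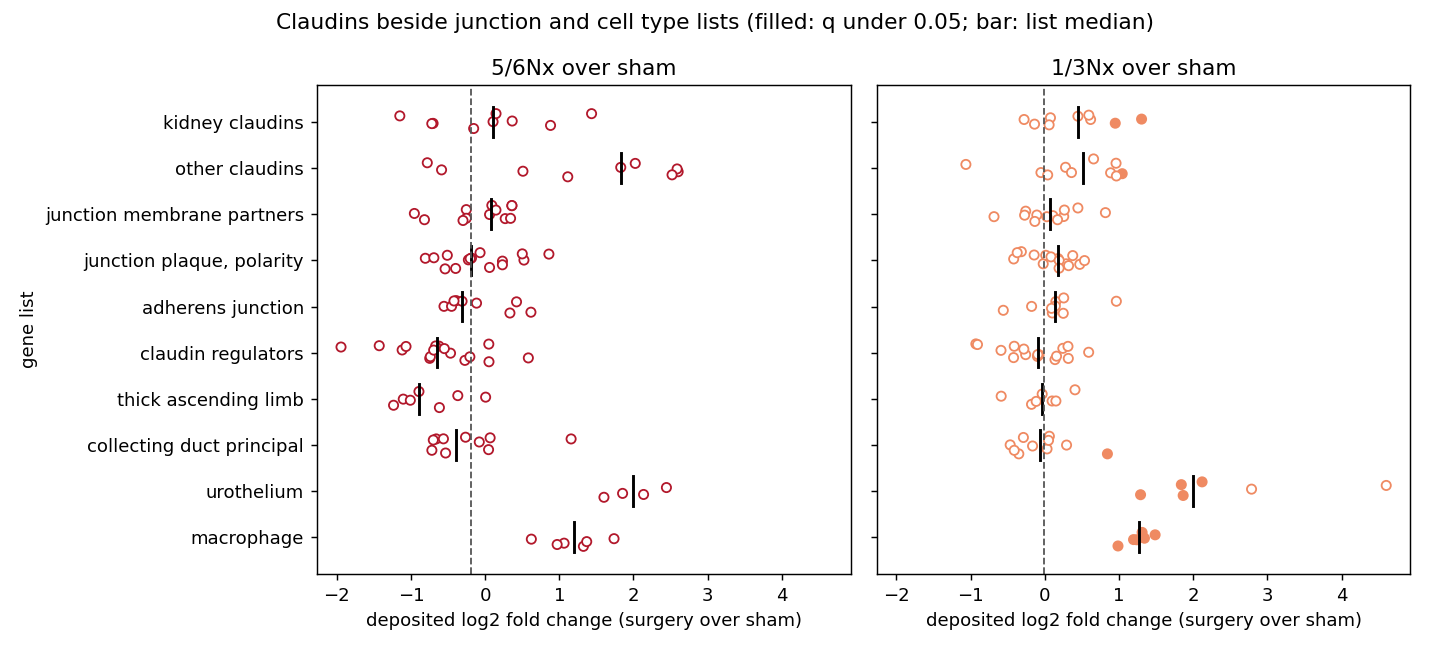
Log2 fold changes of surgery over sham from the authors' deposited tables for the 9 kidney claudins, the junction lists and 4 cell type lists, with filled points for q under 0.05, black bars at list medians and a dashed line at the median of named features. Filled points stand in 1/3Nx for Cldn4, Cldn7, Cldn6, the keratin gene Krt18 of the principal cell list, 4 uroplakins and 6 macrophage genes, while the junction partner lists hold none.

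Defining markers of the kidney were present in every group, among them Slc34a1 of the proximal tubule, Umod of the thick ascending limb and Aqp2 of the collecting duct. For the collecting duct, where Cldn4 and Cldn7 are made, 1 of 10 principal cell markers rose in 1/3Nx in the authors' deposited table and none fell. It was the keratin gene Krt18, with 37.0 FPKM against 20.6 FPKM in sham and q = 0.0162 in the authors' deposited table. Among all 1/3Nx features with 1 name and at least 1 FPKM in sham, 7.28% were called. Aqp2, the water channel of this segment, had 81.6 FPKM in 1/3Nx, against 113 FPKM in sham, with q = 0.282 in the authors' deposited table. Summed over the 10 markers, the level was 349 FPKM in 1/3Nx and 416 FPKM in sham, and 168 FPKM in 5/6Nx and 208 FPKM in sham. In 1/3Nx 5 of the 10 had a higher value than sham and 5 a lower one, with a median log2 fold change of -0.07 in the authors' deposited table. The part of these cells' share of the tissue in the Cldn4 and Cldn7 values was not tested.

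Other tissues that make claudins moved beside them. Of 7 urothelial markers with a row, Upk1a, Upk1b, Upk2 and Upk3a rose in 1/3Nx in the authors' deposited table, and none passed in 5/6Nx. The summed urothelial level was 26.9 FPKM in 1/3Nx, against 8.37 FPKM in sham, and 15.9 FPKM in 5/6Nx, against 4.18 FPKM in sham. The other 3 were low, with Krt5 at 0.741 FPKM, Upk3b at 0.439 FPKM and Krt20 at 0.148 FPKM in 1/3Nx. Of 9 exocrine pancreas genes with a row, 8 rose in 1/3Nx (Prss3, Pnlip, Cpb1, Cpa1, Cela2a, Cela3b, Cel and Sycn) and 4 in 5/6Nx (Prss1, Cpa1, Cela2a and Cel) in the authors' deposited tables. Of all tested features, 6.40% were called in 1/3Nx and 58.0% in 5/6Nx. With q-values over features with 1 gene name, Prss1 and Cela2a stayed called in 5/6Nx, while Cpa1 (q = 0.293) and Cel (q = 0.273) did not. The summed level of the 9 pancreas genes was 942 FPKM in 1/3Nx, against 1.90 FPKM in sham, and 660 FPKM in 5/6Nx, against 0.948 FPKM in sham. Urothelium and pancreatic epithelium are both known to make Cldn4 and Cldn7, and their part in the rises of these genes was not tested. All 6 macrophage markers (Cd68, Adgre1, Cd14, C1qa, C1qb and Csf1r) rose in 1/3Nx in the authors' deposited table, with a summed level of 131 FPKM against 57.0 FPKM in sham, and in 5/6Nx none passed.

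Single genes of further marker lists also passed. In 1/3Nx the proximal tubule genes Slc22a6 and Slc13a3 and the thin limb gene Cryab fell, and the distal calcium channel gene Trpv5 and the endothelial gene Cdh5 rose, in the authors' deposited table. Proximal tubule markers summed to 2356 FPKM in 1/3Nx, against 3712 FPKM in sham, and to 1636 FPKM in 5/6Nx, against 1852 FPKM in sham, beside Cldn2 values near sham. None of the intercalated cell markers passed. Of the liver list Alb, Ttr and Serpina1 rose in 1/3Nx and Fgb in 5/6Nx, and of skeletal muscle Acta1, Ckm and Tnnt3 rose in 1/3Nx, in the authors' deposited tables.

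Among 78 list genes with at least 5 FPKM in sham of both tables, the one nearest to each claudin by its pair of log2 fold changes was named, a likeness over 2 comparisons that share their sham rats. Cldn10 lay nearest to Slc4a9 (distance 0.12 on the log2 scale of the authors' deposited tables) and Cldn16 to Stk39 (0.21), which also lay nearest to Cldn8 (0.35). Cldn7 lay nearest to Krt18 (0.30) and Cldn4 to the macrophage gene C1qb (0.31), the distances again coming from the authors' deposited tables. The nearest genes to Cldn1, Cldn2, Cldn3 and Cldn19 were Ybx3, Lsr, Slc26a4 and Egfl7, at distances of 0.15, 0.17, 0.07 and 0.09 in the authors' deposited tables.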

How the data were processed

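Total RNA of 17 rat left kidneys was sequenced from both ends after a stranded total RNA library preparation, per the labels' protocols. The tools in the submitters' processing notes are TopHat2 2.1.1, Cufflinks 2.2.1, StringTie, cutadapt and FastQC, and the build is rn5, with no role or order. The authors deposited gene and isoform tables for each surgery against sham, with a group FPKM, a log2 fold change, a p-value and a q-value, per the file headers. A deposited summary gives the read count and the percent of reads mapped for each library.

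Because the tables hold group values, the planned fits on single libraries were not made. The authors' calls were read at q under 0.05, and the deposited q-values were recomputed from the p-values by the Benjamini-Hochberg method (largest difference 5.28e-07), then over features with 1 name and over those with at least 1 FPKM in sham. This step was tested on simulated data. Rows with several names (628 features) were not used for named genes. Of 170 list genes, 158 had a row.

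The 9 claudins and the lists were chosen with earlier results of these data known. By rule, all 9 claudins, their transcripts with at least 1 FPKM, other claudins with at least 1 FPKM and list genes passing the threshold, or otherwise those of smallest p, are named. Ocln, Casr and Aqp2 were added after their values were seen, and some list genes that the rule names are not reported here. Promoters come from RefSeq on GRCr8.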

Additional observations from a re-analysis of the deposited data

Results flagged for a closer look

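In the 5/6Nx group, the library of replicate 5 held 104 M reads (M, the SI prefix mega), and the next highest of the 6 held 73.0 M. Its gap to that library was 0.685 of the group's range, above Dixon's limit of 0.625 for 6 samples. Chance flags about 1 in 20 such groups. The group FPKM of each claudin includes this library, and values without it were not analysed here.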

How the results depend on the processing

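Of 12 recomputed counts of called claudins, 9 came out like the reported ones. Among the settings, reading any row of a symbol could not change a count, since each claudin had exactly 1 row. In 5/6Nx, reading each claudin by its most abundant named isoform gave 1 call in place of 0, the Cldn1 transcript. With q-values over isoforms with 1 gene name, or over those with at least 1 FPKM in sham, 0 claudin isoforms were called in 5/6Nx in place of 1. In 1/3Nx, Cldn4 and Cldn7 stayed called under each of these settings. The 72 recomputed log2 fold changes used pseudocounts of 1 and 0.1, centring on the median of named features and summing over rows. A pseudocount added to both groups cannot change a sign, nor can summing where each claudin had exactly 1 row. Centring could, and of 18 log2 fold changes it reversed 1, turning Cldn3 in 5/6Nx to 0.041. No paired analysis was possible because the tables hold 1 value per group. Leaving out a replicate was not run for the same reason. Depth behind a value is not known per group; Cldn1, at 1.63 FPKM in sham of the 5/6Nx table, had the lowest level.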
